A study of Mus musculus with 16 samples.

Results

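The genes described here encode the cGAS-STING pathway, the cytosolic DNA sensor of mouse cells and the proteins that act with it. They were chosen by name, as the probes whose accession belongs to Sting1 (older symbol Tmem173), Cgas (older symbol Mb21d1), Tbk1, Ikbke, Irf3, Trex1, Ifi204, Enpp1, Trim56 or Rnf5. All 10 genes were on the array, with 14 probes, among 22911 genes that could be named. Cerebellar cortex RNA of 16 mice was hybridised to 16 Agilent arrays of 1 colour, whose spots glow in proportion to the labelled RNA on their probes. Wild-type mice (WT) and Atm-/- mice each had 4 arrays without treatment (veh) and 4 with NR. Atm-/- mice carry the Atmtm1Bal allele on both chromosomes, on a mixed C57BL/6 and 129S4 background (B6;129S4-Atmtm1Bal/J), and WT mice were their littermates. The labels give all 16 mice as male. NR is nicotinamide riboside, from which cells make NAD+. Treated mice drank it at 3.5 mg/ml (12 mM) for 2 months, starting at 6 weeks of age, and all tissue was taken at 3.5 months. The loss of Atm is present in every cell from conception, so the Atm-/- groups model germline loss.

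cGAS binds double-stranded DNA in the cytosol, from viruses, damaged nuclei or mitochondria, and makes the messenger cGAMP. cGAMP binds STING on the endoplasmic reticulum, STING moves to the Golgi and gathers TBK1, and TBK1 (or its relative IKKε) phosphorylates IRF3, which then switches on type I interferon and chemokine genes. These steps run through a small molecule and through phosphorylation, so the mRNA levels below are the amounts of the parts and not a readout of their activity. In the brain STING is known mainly from microglia, the resident macrophages. The question put to these arrays is whether any part of the pathway differs in RNA level between Atm-/- and WT cerebellum, or with NR.

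Of the 10 genes, 9 were detected well enough to test, and none of the 9 was called at an adjusted p under 0.05 in any comparison. Detection means that the scanner software marked the spots of a probe as well above background, and a probe was tested where this held on all 4 arrays of at least 1 group. Sting1, Tbk1, Irf3, Trex1, Ifi204, Enpp1, Trim56 and Rnf5 each had a probe detected on 16 of 16 arrays. Cgas had a brighter probe detected on 16 arrays and a dimmer one detected on 15. Ikbke, which encodes IKKε, was not tested: of its probes, 1 was well above background on 3 arrays and the other on 0. Its first probe had a log2 signal of 7.31 on Atm-/- veh 4 and between 3.01 and 5.38 on the other 15 arrays. A second Trim56 probe was well above background on 1 array only, and a second Irf3 probe was left out because 1 of its spots carried an outlier mark. All further values are log2 signals after quantile normalization, so a difference of 1 is a doubling. In bulk tissue, fewer cells of a type and less RNA per cell cannot be told apart.

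Several properties of the arrays touch these results. One slide held the 8 WT arrays and the other the 8 Atm-/- arrays, so slide and genotype cannot be told apart, and on both slides the veh arrays lay in the first row and the NR arrays in the second, so row and treatment cannot be told apart either. The labelled sex was contradicted on 4 arrays, 2 of WT NR (1 and 4), Atm-/- veh 3, and the array Atm-/- NR 4, which had a signal for Xist and none for Y-linked genes. WT veh 4 stood apart by 5 choroid plexus markers, whose mean lay 4.98 above their 16-array mean, against at most 0.89 elsewhere. The mean of 5 markers of brain regions outside the cerebellum lay 2.94 above its 16-array mean on WT veh 4 and 1.92 on WT NR 3, against at most 0.90 elsewhere. The number of probes well above background per array was 37843 to 42559 in WT veh, 36402 to 40010 in WT NR, 39134 to 41905 in Atm-/- veh and 34945 to 37817 in Atm-/- NR, so the Atm-/- groups did not overlap in it. Of the genotype itself, 1 of 2 Atm probes was lower in Atm-/- veh than in WT veh (difference -0.87, adjusted p = 3.2e-04) and in Atm-/- NR than in WT NR (-0.76, adjusted p = 0.00135), and the other was not called (-0.35 and -0.12).

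Cgas, which encodes the sensor, and Sting1, which encodes the receptor of cGAMP, come first. Sting1 stood at 8.94, 9.09, 8.87 and 9.46 in WT veh 1 to 4 and at 8.77, 8.94, 9.05 and 9.09 in WT NR. Atm-/- veh stood at 8.79, 8.85, 9.19 and 8.83, and Atm-/- NR at 8.71, 8.97, 9.13 and 8.83. The 4 groups overlapped throughout, and all 16 arrays lay within 0.75. The group means ran from 9.09 ± 0.26 (SD, n = 4) in WT veh over 8.96 ± 0.14 in WT NR and 8.92 ± 0.19 in Atm-/- veh to 8.91 ± 0.18 in Atm-/- NR, and no neighbours in that order differed by more than their SD. Sting1 was 0.17 lower in Atm-/- veh than in WT veh, with a 95% interval from -0.47 to 0.13 (limma, adjusted p = 0.589), and differed by -0.0054 between Atm-/- NR and Atm-/- veh (interval -0.30 to 0.29). For Atm-/- veh against WT veh this interval runs from 0.722-fold to 1.09-fold. Leaving out WT veh 4 changed the difference of -0.17 to -0.049, and leaving out Atm-/- veh 3 changed it to -0.26.

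Cgas by its brighter probe spread more widely. It stood at 6.50, 6.63, 6.68 and 7.50 in WT veh 1 to 4 and at 6.87, 7.04, 7.46 and 6.76 in WT NR. Atm-/- veh stood at 6.36, 6.17, 6.96 and 6.55, and Atm-/- NR at 7.11, 6.86, 6.68 and 7.14. The 3 lowest arrays of the 16 were 2 of Atm-/- veh and 1 of WT veh, the highest were WT veh 4 and WT NR 3, the arrays highest in markers of other brain regions, and every pair of groups overlapped. The part of that tissue in the Cgas level was not tested. The mean was 0.43 higher in Atm-/- NR than in Atm-/- veh (1.35-fold, interval -0.056 to 0.92 in log2, adjusted p = 0.237) and 0.32 higher with NR over both genotypes (adjusted p = 0.220). With normexp background correction these became 0.19 and 0.17. Without WT veh 4 the difference over both genotypes became 0.43 with an adjusted p of 0.0504, the lowest that any member reached in any fit run. The dimmer Cgas probe gave 0.049 for the same comparison (interval -0.17 to 0.27). Cgas by its brighter probe was 0.32 lower in Atm-/- veh than in WT veh (interval -0.81 to 0.17, adjusted p = 0.538), and 0.094 lower without WT veh 4. The dimmer probe was lower in Atm-/- than in WT over both treatments, by 0.24 (interval -0.47 to -0.018, unadjusted p = 0.0361, adjusted p = 0.348; 0.097 with normexp), where the brighter probe gave -0.20 (adjusted p = 0.617).

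**Figure D1:**
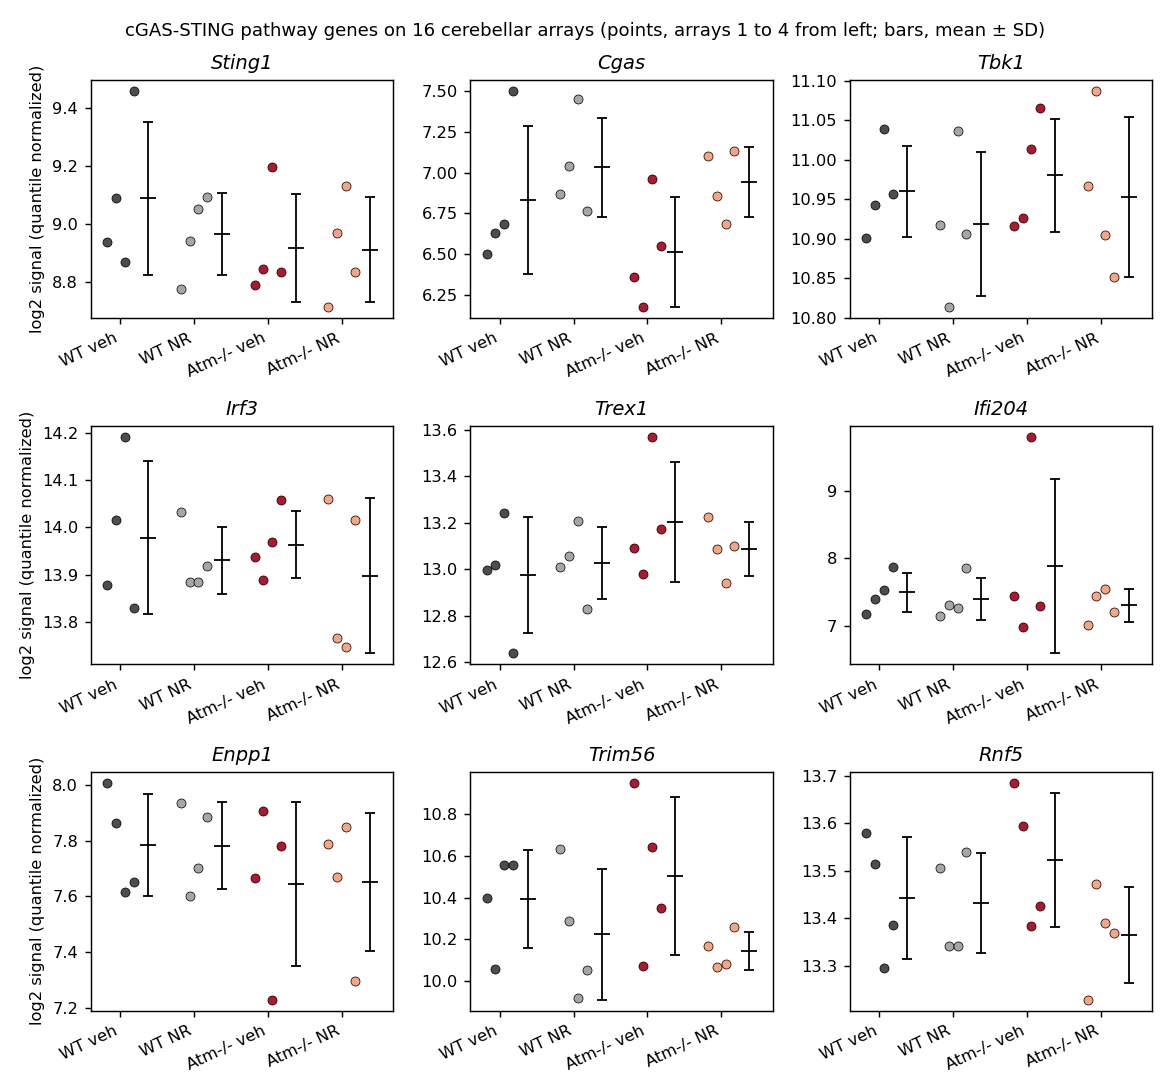
Log2 signal (vertical axes, quantile normalized, a scale of its own in each panel) of the 9 tested cGAS-STING pathway genes, each by its brightest probe, on the 16 arrays. Points are arrays 1 to 4 of each group from left to right and bars are group mean ± SD (n = 4). The groups overlap in every panel, and in the Ifi204 panel Atm-/- veh 3 stands at 9.81 above the other 15 arrays, which lie between 6.99 and 7.88.

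Downstream of STING, the kinase Tbk1 and, by its brightest probe, the transcription factor Irf3 varied little. Tbk1 stayed between 10.81 and 11.09 on all 16 arrays, a span of 1.21-fold, and its group means lay within 0.062 of each other. Atm-/- veh lay 0.020 above WT veh, with an interval from -0.14 to 0.18, or 0.910-fold to 1.13-fold. Irf3 stayed between 13.75 and 14.19, with group means from 13.90 ± 0.16 in Atm-/- NR to 13.98 ± 0.16 in WT veh. Atm-/- veh minus WT veh was -0.015 (interval -0.22 to 0.19), and Atm-/- NR minus Atm-/- veh was -0.066 (interval -0.27 to 0.14). When spots with an outlier mark were kept (added after seeing the data), the second Irf3 probe entered, spanned 9.17 to 10.44 over the 16 arrays and differed by 0.29 between the genotypes over both treatments (unadjusted p = 0.0387, adjusted p = 0.362), where the first gave -0.024.

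Trex1 and Enpp1 limit the pathway from opposite ends: TREX1 is the exonuclease that degrades cytosolic DNA before cGAS can bind it, and ENPP1 is the enzyme that hydrolyses cGAMP outside the cell. Trex1 stood at 12.997, 13.02, 13.24 and 12.64 in WT veh 1 to 4 and at 13.01, 13.06, 13.21 and 12.83 in WT NR. Atm-/- veh stood at 13.09, 12.98, 13.57 and 13.17, and Atm-/- NR at 13.23, 13.09, 12.94 and 13.10. The highest value was on Atm-/- veh 3 and the lowest on WT veh 4, and the groups overlapped. The mean was 0.23 higher in Atm-/- veh than in WT veh (1.17-fold, interval -0.076 to 0.53, adjusted p = 0.474), and 0.11 without Atm-/- veh 3. Enpp1 ranged from 7.23 on Atm-/- veh 3 to 8.01 on WT veh 1, and its means in WT mice were 7.78 ± 0.18 without and 7.78 ± 0.16 with NR, and in Atm-/- mice 7.65 ± 0.29 without and 7.65 ± 0.25 with NR. The genotype differences of Enpp1 were -0.14 without NR (adjusted p = 0.708) and -0.13 with NR (adjusted p = 0.9997). The lowest Enpp1 values were on Atm-/- veh 3 and Atm-/- NR 4, which both contradict the labelled sex. WT NR 1 and WT NR 4, which contradict it as well, stood high, at 7.94 and 7.89. The part of sex in the Enpp1 level was not tested. The first difference was -0.00032 without Atm-/- veh 3, and on the arrays that match the labelled sex the second was 0.12 and the difference over both treatments 0.058 in place of -0.13.

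TRIM56 and RNF5 are ubiquitin ligases that act on the pathway: TRIM56 has been linked to activation of cGAS and STING, and RNF5 marks STING for degradation. Trim56 stood at 10.40, 10.06, 10.56 and 10.56 in WT veh 1 to 4 and at 10.63, 10.29, 9.92 and 10.05 in WT NR. Atm-/- veh stood at 10.95, 10.07, 10.64 and 10.35, and Atm-/- NR at 10.17, 10.07, 10.08 and 10.26. The 4 Atm-/- NR arrays lay close together, near the low end of the other groups, and Atm-/- veh 2 lay among them. The mean was 0.36 lower in Atm-/- NR than in Atm-/- veh (0.780-fold, interval -0.76 to 0.042, unadjusted p = 0.0756, adjusted p = 0.233) and 0.26 lower with NR over both genotypes (adjusted p = 0.214). The former difference was -0.21 without Atm-/- veh 1 and -0.50 without Atm-/- veh 2 (adjusted p = 0.0865). Rnf5 ranged from 13.23 to 13.68, and its largest difference was -0.16 between Atm-/- NR and Atm-/- veh (interval -0.36 to 0.041, adjusted p = 0.290).

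Ifi204 encodes a DNA-binding protein of the interferon-inducible PYHIN family (p204), counted with cGAS among the sensors that signal through STING, and it has close relatives in that family that its probe may also bind. It stood at 7.18, 7.40, 7.53 and 7.88 in WT veh 1 to 4, at 7.15, 7.31, 7.26 and 7.85 in WT NR, and at 7.004, 7.45, 7.55 and 7.21 in Atm-/- NR. In Atm-/- veh it stood at 7.45, 6.99, 9.81 and 7.30. Atm-/- veh 3 was thus 5.42-fold above the mean of the other 15 arrays, and the other 3 Atm-/- veh arrays lay within their range. With that array the Atm-/- veh mean was 0.39 above WT veh (interval -0.59 to 1.37, adjusted p = 0.723), and without it 0.25 below (adjusted p = 0.622). For Atm-/- NR against Atm-/- veh the difference was -0.58 with it (adjusted p = 0.433) and 0.058 without it. The sign of the Ifi204 difference in both comparisons therefore rested on 1 array of 16, which is also among the 4 that contradict the labelled sex.

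**Figure D2:**
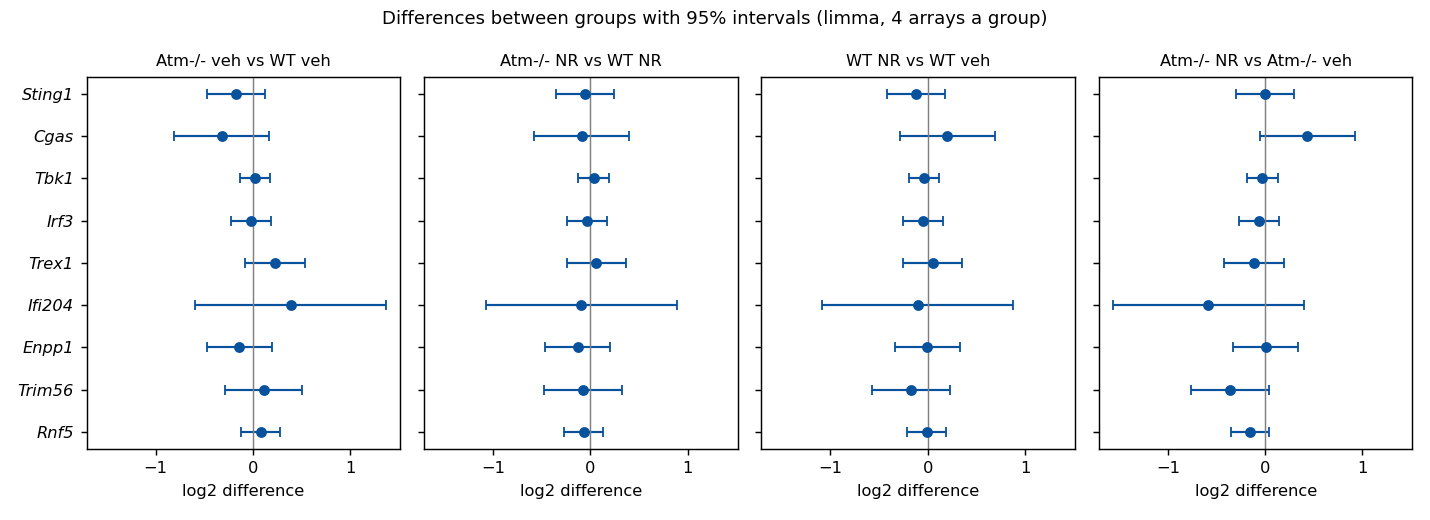
Differences in log2 signal (horizontal axes) between the groups named above each panel, for the 9 tested genes, with 95% intervals from the limma fit over 16 arrays (n = 4 a group). Every interval includes 0; the narrowest are those of Tbk1 (0.16 to either side) and the widest those of Ifi204 (0.98 to either side).

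Counted over the comparisons, 0 of the 9 genes were called at an adjusted p under 0.05 in Atm-/- veh against WT veh, where 0.0538% of all 16737 tested genes were called, and 0 in Atm-/- NR against WT NR, where 0.0597% were. With so few calls among all genes, a count of 0 says little about the members. In WT NR against WT veh, 0 members and 0% of all genes were called by limma, with 1479 of all genes at an unadjusted p under 0.05. In Atm-/- NR against Atm-/- veh, 0 members were called where 11.5% of all genes were. Over both treatments, 0 members differed by genotype (0.221% of all genes). Over both genotypes, 0 differed with NR (13.4% of all genes), and 0 had NR effects that differed between the genotypes (0% of all genes, with 998 at an unadjusted p under 0.05). The F test for any difference among the 4 groups called 0 members, with adjusted p from 0.381 for Cgas to 0.918 for Tbk1, and 6.14% of all genes. At an unadjusted p under 0.05 the count was also 0 of 9 in each of the 7 comparisons by the brightest probe. Of all 16737 genes, 2817 were under it in Atm-/- veh against WT veh and 727 in Atm-/- NR against WT NR. There were 5109 in Atm-/- NR against Atm-/- veh, 2193 by genotype over both treatments and 5194 with NR over both genotypes.

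Complete separation of groups was absent too. The 4 arrays of each group overlapped with those of the other for all 9 genes in Atm-/- veh against WT veh (8.74% of all genes did not overlap), Atm-/- NR against WT NR (4.53%), WT NR against WT veh (4.58%) and Atm-/- NR against Atm-/- veh (26.3%). The median difference over the 9 members was 0.020 in Atm-/- veh against WT veh, beside -0.028 over all genes, and -0.066 in Atm-/- NR against Atm-/- veh, beside 0.036 over all genes. In the latter comparison 7 of 9 members were lower and 2 higher, in the former 4 lower and 5 higher.

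The rest of the pathway was taken from 7 lists of 102 genes, of which 100 were on the array and 92 were tested. In Atm-/- veh against WT veh 0 of 92 were called. An unadjusted p under 0.05 was found for 12, a smaller share than the 2817 of 16737 over all genes. The largest rises among those were Zcchc3, a cofactor of cGAS (0.38, adjusted p = 0.290), and Zdhhc3, a Golgi palmitoyltransferase of the kind that modifies STING (0.26, adjusted p = 0.271). The largest falls were Chuk, which encodes the kinase IKKα (-0.32, adjusted p = 0.197), and Stim1, the calcium sensor that holds STING in the endoplasmic reticulum (-0.24, adjusted p = 0.252). In Atm-/- NR against WT NR 0 of 92 were called. There Prkdc, the catalytic subunit of the kinase DNA-PK, had the lowest unadjusted p (difference -0.24, unadjusted p = 0.00535, adjusted p = 0.701). In WT NR against WT veh 0 of 92 were called, with Dhx36 0.26 higher (adjusted p = 0.576) and the RNA editing enzyme Adar 0.25 lower (adjusted p = 0.574).

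In Atm-/- NR against Atm-/- veh, 12 of the 92 genes were called, or 13%, beside 11.5% of all genes. The groups also differed in other ways. The mean of 6 Purkinje cell markers, as a deviation from its 16-array mean, ran from -0.31 to 0.061 on Atm-/- veh arrays and from 0.067 to 0.20 on Atm-/- NR arrays, without overlap. That of 6 endothelial markers ran from -0.15 to 0.58 and from -0.25 to -0.047, with overlap. The value of 0.58 was that of Atm-/- veh 3, and no other Atm-/- veh array lay above 0.061. All 12 markers were well above background on 16 arrays. Taken singly, 26.3% of all genes also did not overlap between Atm-/- NR and Atm-/- veh. The means of the microglia, granule cell, astrocyte and oligodendrocyte markers overlapped. Fewer probes were well above background in Atm-/- NR, as given above, and the part of these differences in the calls was not tested. Of the 12 genes, 4 rose, beside 6.67% of all genes, and 8 fell, beside 4.80%. Among DNA sensors and cofactors (17 tested), Dhx36, a helicase, rose by 0.47 (adjusted p = 0.0142) and Pqbp1, a cofactor of cGAS for retroviral DNA, fell by 0.23 (adjusted p = 0.0483). Among nucleases and other limits on self DNA and RNA (10 tested), Adar, which edits double-stranded RNA, fell by 0.45 (adjusted p = 0.0146) and Banf1, which coats DNA and keeps cGAS off it, fell by 0.35 (adjusted p = 0.0440). The mean of Adar in WT mice was 12.77 ± 0.10 without and 12.51 ± 0.19 with NR, and in Atm-/- mice 12.71 ± 0.094 without and 12.26 ± 0.076 with NR, and a second Adar probe gave -0.21.

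Among cGAMP transport and breakdown genes (9 tested), Slc19a1, the folate carrier that also imports cyclic dinucleotides, fell by 0.37 (adjusted p = 0.0329), and its other probe gave 0.10. Among STING traffic and modifiers (25 tested), Stim1 rose by 0.35 (adjusted p = 0.0266) and the deubiquitinase Usp20 by 0.23 (adjusted p = 0.0305), while Zdhhc3 fell by 0.37 (adjusted p = 0.0319), Usp21 by 0.30 (adjusted p = 0.0371) and Zdhhc7 by 0.29 (adjusted p = 0.0253). Other probes of Stim1, Usp20 and Usp21 went the same way, and those of Zdhhc3 and Zdhhc7 did not (0.0087 and 0.10). Among TBK1 and NF-kB signalling partners (18 tested), Map3k7, which encodes the kinase TAK1, rose by 0.31 (adjusted p = 0.0428) and Ikbkg, which encodes NEMO, fell by 0.29 (adjusted p = 0.0438). The other probes of both went the other way (-0.056 and -0.046 for Map3k7, 0.19 and 0.21 for Ikbkg). The other Dhx36 probe, at -0.0054, did not rise either. No cGAS modifier was called (7 tested). Leaving out 1 array moved the count of 12 to between 2 and 17, with 2 left without Atm-/- veh 1, Atm-/- veh 4, Atm-/- NR 3 or Atm-/- NR 4, 5 without Atm-/- NR 2, 6 without Atm-/- NR 1 and 7 without Atm-/- veh 3. On the arrays that match the labelled sex the count was 0.

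**Figure D3:**
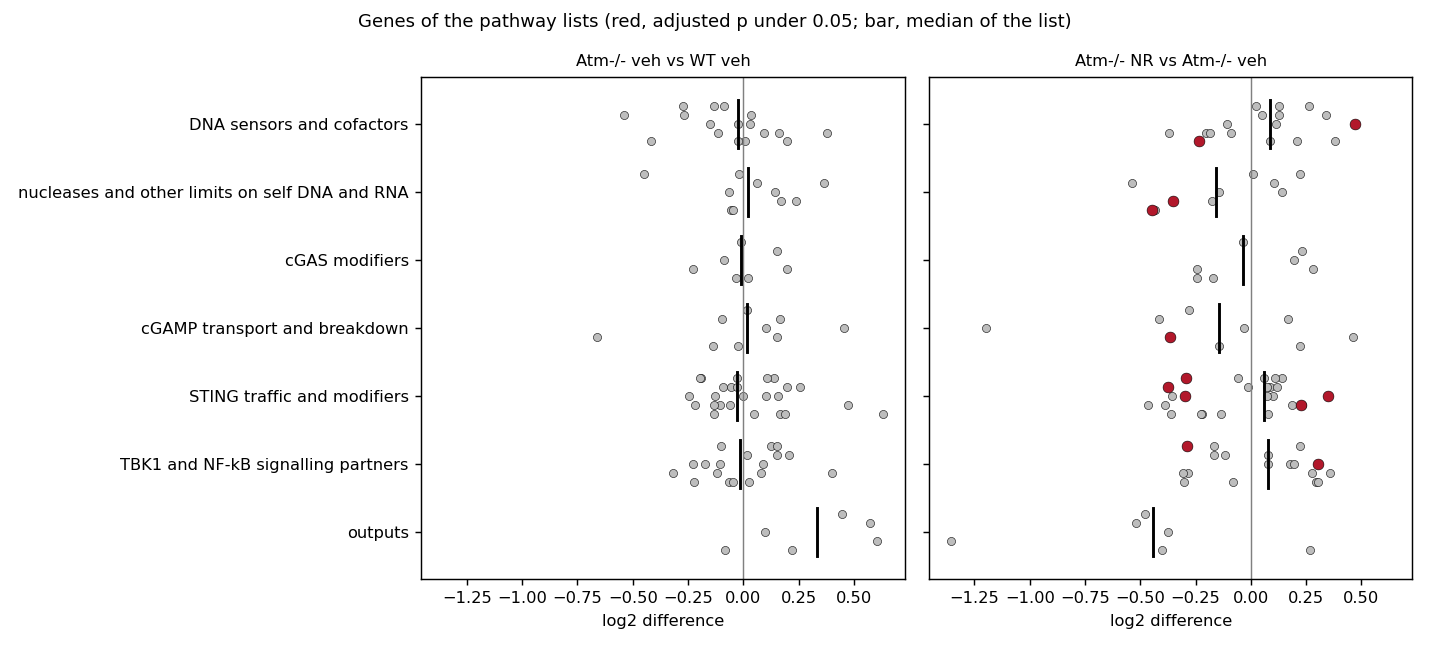
Differences in log2 signal (horizontal axes) for the 92 tested genes of the 7 pathway lists (rows) in Atm-/- veh against WT veh and in Atm-/- NR against Atm-/- veh. Red points are genes with an adjusted p under 0.05 and bars are list medians: the left panel has 0 red points and the right panel 12, of which 8 lie below 0.

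Over both genotypes, NR arrays differed from veh arrays in 15 of the 92 genes, or 16.3%, beside 13.4% of all genes. Of these, 7 rose, beside 7.44% of all genes, and 8 fell, beside 5.94%. This comparison shares its Atm-/- arrays with the one above. The genes that rose were Dhx36 (0.37), Ppm1b, a phosphatase of TBK1 (0.31), Hmgb1, a nuclear DNA-binding protein (0.31), the TBK1 adaptor Azi2 (0.25), Stim1 (0.23), Map3k7 (0.22) and Usp20 (0.16). Other probes did not follow for Dhx36 (-0.040), Ppm1b (-0.075) and Map3k7 (-0.020 and -0.11), and those of Azi2 were divided (-0.016, -0.11 and 0.36). The 8 that fell were Adar (-0.35), Slc19a1 (-0.30), Zdhhc3 (-0.27), Banf1 (-0.26), Zdhhc7 (-0.25), Usp21 (-0.23), Ikbkg (-0.19) and Pqbp1 (-0.18). Other probes of Zdhhc3 (-0.050), Slc19a1 (-0.046) and Zdhhc7 (-0.045) were near 0, and those of Ikbkg gave -0.0040 and 0.16. The interaction of genotype and NR was called for 0 of 92. The count of 15 was 3 on the arrays that match the labelled sex, and 4 without Atm-/- veh 1, 5 without Atm-/- veh 4, 5 without Atm-/- NR 3, 6 without WT NR 3, 7 without WT NR 2 and 8 without Atm-/- NR 4.

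The outputs of the pathway are the genes that IRF3 and NF-kB switch on. The interferon genes Ifnb1 and Ifna4 and the cytokine gene Il6 were too dim to test, and Cxcl10, Ccl5, Isg15, Ifit1, Ifit3 and Tnf were tested. None of these 6 was called in any comparison. In Atm-/- veh against WT veh their median difference was 0.33, beside -0.028 over all genes, with 5 of 6 higher. Without Atm-/- veh 3 it was -0.039, with 2 of 6 higher. In Atm-/- NR against Atm-/- veh the median was -0.44, and -0.0066 without that array.

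These shifts rest on Atm-/- veh 3, where 4 of the 6 outputs had their highest value. Cxcl10, a chemokine that attracts T cells, stood at 11.97 on it and between 6.53 and 10.04 on the other 15 arrays, which is 18.2-fold above their mean. Ifit1 stood at 10.42 against 7.38 to 8.60 (5.33-fold), Ifit3 at 13.24 against 10.94 to 11.56 (3.95-fold) and Isg15 at 12.84 against 10.46 to 11.39 (3.81-fold); these encode antiviral effectors induced by interferon. Ccl5 had rank 6 of 16 there, and Tnf was lowest. Of the members, Ifi204 and Trex1 had their highest value on this array (2 of 9), Sting1 and Trim56 their second highest, and Enpp1 its lowest. Of all tested genes, 9.0% had their highest value there.

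Chosen after their values were seen, the interferon-induced genes Irf7 (4.85-fold), Usp18 (6.08-fold) and Trim30a (2.83-fold) and the Ifi204 relative Ifi202b (19.1-fold) were also highest on Atm-/- veh 3. So were genes of red blood cells (Hbb-b1 8.06-fold and Alas2 10.1-fold) and of the acute phase response (Lcn2 11.6-fold and Saa3 8.27-fold). The fixed blood list (4 of 5 markers tested) had a mean deviation of 1.30 on this array, below the 1.41 of Atm-/- NR 2, so the blood list as a whole was not highest there. Cxcl10 was next highest on WT NR 1 and WT NR 4, which are also among the 4 arrays that contradict the labelled sex, while on the fourth, Atm-/- NR 4, it lay 0.35 below its 16-array mean. The part of sex, blood or any other property of this mouse in these values was not tested.

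**Figure D4:**
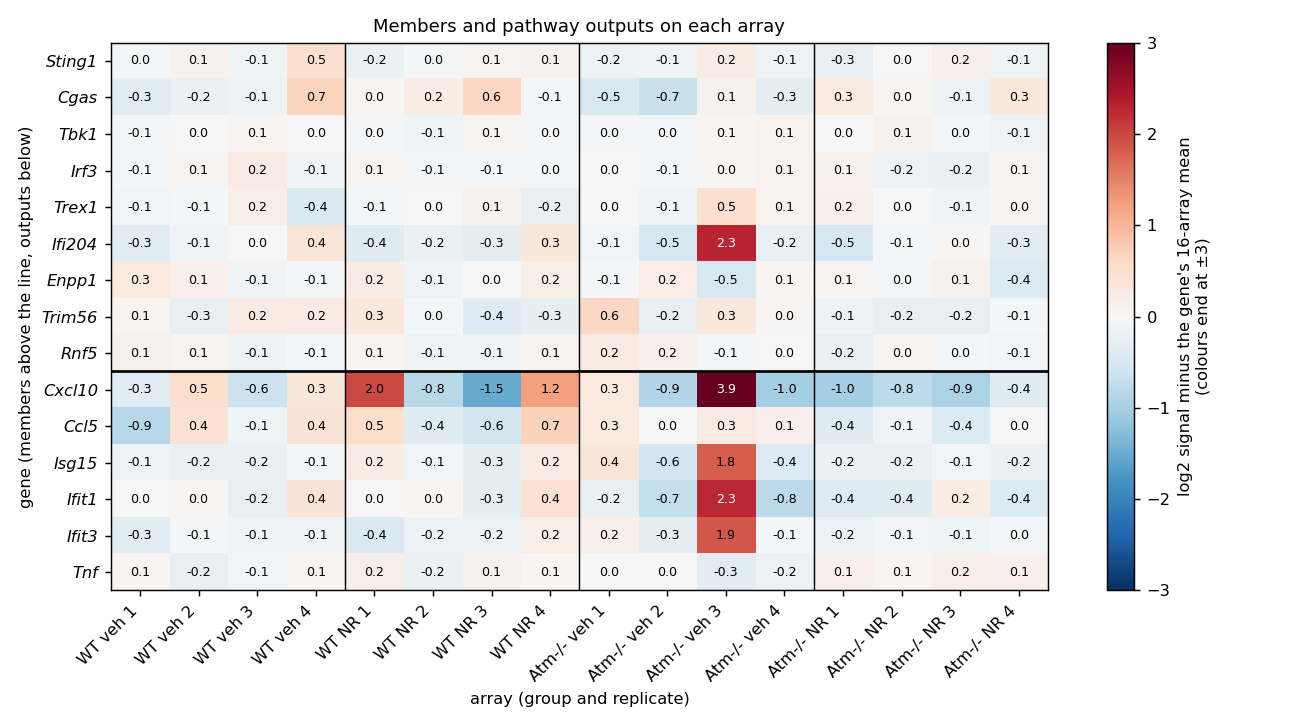
Deviation of the log2 signal from the 16-array mean of each gene (colour and number in each cell, colours end at ±3) for the 9 tested members (upper rows) and 6 outputs (lower rows) on each array (columns). The column of Atm-/- veh 3 holds the highest values of Ifi204, Trex1, Cxcl10, Isg15, Ifit1 and Ifit3, and no group of 4 columns stands apart as a whole.

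The promoters of these outputs are printed because these 4 genes, high together on 1 array, share a motif in them. Irf7 and Trex1, also highest on that array, have windows without it. The 4 genes were listed beforehand as outputs that IRF3 and NF-kB switch on. Sharing the motif is therefore no test of their values on that array. The letters searched, on both strands, were GAAA, any 2 bases and again GAAA, the core of the interferon-stimulated response element to which IRF3 and its relatives bind. In windows of 250 bases before the start of the gene (RefSeq, build GRCm38.p6), 2.98% of 32851 windows held it. It was found for 5 of 8 outputs that had a window: the 4 printed and Ifna4, which was too dim to test. It was not found for Ifnb1, Il6 and Tnf, but sites for IRF3 with other letters or spacing were not searched for. Among members it was found for 0 of 7 that had a window (Cgas, Tbk1, Ikbke, Irf3, Trex1, Enpp1 and Trim56). Sting1, Rnf5 and Ifi204, which was itself high on that array, had no window. Nor had the output Ccl5, which was not highest there. Capitals mark the matches, in Cxcl10 at chr5:92348890-92349139 (minus strand), Isg15 at chr4:156200819-156201068 (minus strand), Ifit1 at chr19:34640639-34640888 (plus strand) and Ifit3 at chr19:34583279-34583528 (plus strand), with overlapping matches in Isg15.
Cxcl10: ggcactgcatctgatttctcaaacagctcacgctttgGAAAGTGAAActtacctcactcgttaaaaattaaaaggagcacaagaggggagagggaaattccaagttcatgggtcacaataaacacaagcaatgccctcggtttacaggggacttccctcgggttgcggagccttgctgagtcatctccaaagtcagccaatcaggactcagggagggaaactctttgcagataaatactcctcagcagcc
Isg15: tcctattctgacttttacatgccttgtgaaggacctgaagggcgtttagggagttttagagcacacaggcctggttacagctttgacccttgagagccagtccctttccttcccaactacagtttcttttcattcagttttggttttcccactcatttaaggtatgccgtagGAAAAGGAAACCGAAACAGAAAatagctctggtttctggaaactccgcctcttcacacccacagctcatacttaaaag
Ifit1: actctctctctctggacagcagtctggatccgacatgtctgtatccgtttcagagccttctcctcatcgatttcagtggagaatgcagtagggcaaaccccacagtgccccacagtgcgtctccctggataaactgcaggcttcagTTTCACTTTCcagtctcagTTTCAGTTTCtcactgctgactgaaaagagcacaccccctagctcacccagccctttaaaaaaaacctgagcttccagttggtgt
Ifit3: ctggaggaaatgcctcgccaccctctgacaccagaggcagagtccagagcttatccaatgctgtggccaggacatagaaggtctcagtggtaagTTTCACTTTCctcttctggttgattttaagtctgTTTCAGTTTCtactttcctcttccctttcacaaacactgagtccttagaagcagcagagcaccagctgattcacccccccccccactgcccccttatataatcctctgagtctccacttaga
The first match begins 213 bases before the start in Cxcl10, 78 in Isg15, 104 in Ifit1 and 156 in Ifit3. A match describes letters in the window. Its absence from a window, of a member or an output, says nothing about other sequence in or near that gene.

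Pearson's r of the other members with Sting1, given as a description over 16 arrays that share slides and groups, ran from -0.50 for Irf3 to 0.56 for Ifi204, with Cgas at 0.43. The genes whose pattern was most like that of Sting1 were Pon3 (r = 0.94), Pdgfra (0.91), Ptprc (0.91), Nfam1 (0.91) and Havcr2 (0.91). Pdgfra marks oligodendrocyte precursors and fibroblasts, Ptprc encodes the leukocyte antigen CD45, and Havcr2 and Nfam1 encode receptors of immune cells. The highest Sting1 values were on WT veh 4 and Atm-/- veh 3. The mean of 9 tested microglia markers of 10 listed, all well above background on 16 arrays, was also highest on these arrays, 0.64 and 0.35 above its 16-array mean. It ranged from -0.20 to 0.64 in WT veh, -0.21 to 0.20 in WT NR, -0.24 to 0.35 in Atm-/- veh and -0.20 to 0.0091 in Atm-/- NR. The mean of 6 endothelial markers was highest on the same arrays, at 0.35 on WT veh 4 and 0.58 on Atm-/- veh 3. That of 5 markers of meninges and fibroblasts was highest on WT veh 4, at 0.66. The means of the choroid plexus markers (4.98) and of those of other brain regions (2.94) were also highest on WT veh 4. The part of microglia or of these other cells and tissues in the Sting1 level was not tested.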

How the data were processed

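Per the file headers, the authors scanned 1 Cy3 array per mouse and extracted background-subtracted spot intensities with Agilent Feature Extraction 12.0.3.1 (array design of build mm9). The authors also deposited a z-score per spot, made per the study's methods by quantile normalization on a log scale in each array, used here only in alternatives. Here, a probe was kept if some group had it well above background (in a share of at least 0.5 of its spots) on each of its 4 arrays, log2 intensities were quantile normalized, spots marked as outliers were dropped and the spots of a probe averaged. Of 56605 probes, 37253 were tested with limma 3.58.1 (R 4.3.3) over all 16 arrays and 4 group means, with 12 residual degrees of freedom, and Benjamini-Hochberg adjustment over all of them. A gene was given by its brightest tested probe and called at an adjusted p under 0.05. The number of arrays limits the precision, and p-values measure the spread between arrays of separate mice. Probes were named by RefSeq accession.

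The genes named were all members, every list gene called, per comparison of groups the 4 largest rises and falls among list genes at an unadjusted p under 0.05 (of which the text gives some), the 5 genes most like Sting1, and Atm. The members and lists were chosen with earlier results of these data known. The scripts were tested on simulated data. Alternatives were 75th percentile scaling, normexp (offset 50), no or a stricter filter, the deposited scores, the methods' t-test, another probe per gene, subsets of arrays, each array left out and a replicate block. Kept outlier spots and the methods' rule with all its limits were added after seeing the data, as was carrying Ifi204 and the list counts through them.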

Additional observations from a re-analysis of the deposited data

Results flagged for a closer look

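In some groups of 4, 1 array lay far from the other 3. This held for 3 of 40 groups of arrays of member probes and 5 of 124 of the named pathway genes, where chance gives about 1 in 20. Within Atm-/- veh, Ifi204 stood at 9.81 on array 3 (6.99 to 7.45 on the others) and Sting1 at 9.19 on the same array (8.79 to 8.85). The dimmer Cgas probe stood at 5.42 on Atm-/- veh 4 (5.66 to 5.70). Aim2, a sensor of the inflammasome, stood at 7.67 on WT NR 1 (6.43 to 6.48), and Ppm1b at 16.17 on that array (16.02 to 16.05). Dhx36 stood at 13.70 on Atm-/- veh 2 (13.33 to 13.39). Rnf26, which encodes a ligase that acts on STING, stood at 14.72 on WT veh 1 (14.40 to 14.45). Ifit1 stood at 8.39 on Atm-/- NR 3 (7.74 to 7.81).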

How the results depend on the processing

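No member was called in any of 193 combinations of a comparison and an alternative setting. The lowest adjusted p was 0.0504 (Cgas, NR over both genotypes, without WT veh 4), and for Atm-/- NR against Atm-/- veh 0.0865 (Trim56, -0.50 without Atm-/- veh 2, but -0.21 without Atm-/- veh 1). Ifi204 changed sign: Atm-/- veh minus WT veh was -0.25 without Atm-/- veh 3 and on arrays that match the labelled sex (range with 1 array left out -0.25 to 0.69), and Atm-/- NR minus Atm-/- veh was 0.058 and 0.090 (range -0.88 to 0.058). Counts of pathway genes moved more. The methods' t-test at an unadjusted threshold called 12 in Atm-/- veh against WT veh, 5 in Atm-/- NR against WT NR, 7 in WT NR against WT veh and 41 in Atm-/- NR against Atm-/- veh. No count over all genes is set beside these t-test counts, so they say little about the lists. For Atm-/- NR against Atm-/- veh, all limits of the methods left 0, sex-matching arrays 0, and the arrays of these groups or of 1 slide alone 6. Leaving out 1 array gave 2 to 17. For NR over both genotypes sex-matching arrays gave 3, and leaving out 1 array 4 to 17. Over all probes, at an adjusted p, 3366 were called in Atm-/- NR against Atm-/- veh (438 to 4405 over the alternatives), 4035 for NR over both genotypes (1862 to 4695), 20 in Atm-/- veh against WT veh (7 to 41), 20 in Atm-/- NR against WT NR (10 to 24) and 75 by genotype (33 to 89). Same-numbered arrays, as deviations from their group means, correlated between -0.15 and 0.20. Whether the numbers pair mice, for example by litter, cannot be decided from these correlations. With the replicate block 0 members, 11 pathway genes in Atm-/- NR against Atm-/- veh and 13 for NR over both genotypes were called. Ikbke, Ifnb1, Ifna4 and Il6 lay too near background to be compared.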
